A study of Mus musculus with 10 samples.

Results

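The members of this set are the H3K27me3 peaks on mouse chromosomes 8 and 11. All peaks that the authors listed on these chromosomes were taken from 1 ChIP-seq sample and 1 CUT&RUN sample. They number 17090 of the 107401 peaks of both lists (15.9%). The ChIP-seq list holds 4196 of them on chromosome 8 and 4092 on chromosome 11, of 41159 peaks in all. The CUT&RUN list holds 4005 on chromosome 8 and 4797 on chromosome 11, of 66242 peaks. They are set against the other 17 autosomes, which hold 32822 ChIP-seq and 57204 CUT&RUN peaks. The chromosomes were chosen by their number of listed peaks, which was high, so every comparison of peaks is a description with no test. Each assay has 1 sample and no replicate check.

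The samples are E14 mouse embryonic stem cells in which the histone chaperone NPM1 carries an auxin-inducible degron, so that auxin removes the protein. The medium of every group contained LIF, PD0325901 (1 µM, a MEK1/2 inhibitor) and CHIR99021 (3 µM, a GSK3 inhibitor), and the cells were synchronised in G1 before release. RNA was measured at 12 h in 2 libraries with auxin and 2 libraries without it. ChIP-seq for H3K27me3 was done on cells without auxin at 6 h, and CUT&RUN on a 12 h sample named Control, whose labels do not say that auxin was left out. The header of the count table names 1 clone for all 4 RNA libraries. Nothing says that the replicates were separate cultures. Their spread, which the p-values rest on, may therefore be technical. The input, IgG, auxin CUT&RUN and PRC2 inhibitor samples were not analysed here.

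H3K27me3 is the methylation of lysine 27 of histone H3 by Polycomb repressive complex 2. In embryonic stem cells it is known to lie over silent genes of development, among them the Hox clusters, and to favour stretches rich in CG dinucleotides. Cultured mouse embryonic stem cells are also known to gain whole chromosomes, with 8 and 11 among those most often reported. Copy number was not measured in these files, and its part in the values below was not tested. The cells had the transcripts of their label: 14 of 15 stem cell markers were at 1 CPM (fragments scaled to a common library size) or more in every library. The summed levels of fibroblast markers were 16.4 and 23.1 CPM with auxin, against 9.55 and 11.7 CPM without it. Primitive endoderm markers summed to 15.0 and 17 CPM with auxin, against 10.7 and 11.4 CPM without it. Trophoblast markers summed to 96.7 and 114 CPM with auxin, against 111 and 126 CPM without it. Of these 6 markers, 5 were at 1 CPM or more in every library, and Elf5 was at 0. Of fibroblast and primitive endoderm markers, 4 of 8 and 3 of 6 were at 1 CPM or more in every library. The part of such cells in the results was not tested. In bulk samples, fewer cells of a type and less RNA per cell cannot be told apart.

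Promoter sequences are given for some marked genes at their RefSeq starts, which can lie away from the 5′ end that was called marked. Each is 300 bases, 250 before to 50 after the start in RefSeq GRCm38.p6, 5′ to 3′ on the gene's strand, with CG dinucleotides in capitals. CG reads the same on both strands. Hand2, Neurod2, Hoxb4 and Tbx4 are the developmental regulators with peaks of both assays within 1 kb of the 5′ end and the highest ChIP-seq fold enrichment among those in the table. Foxl1, Irx6, Nkx6-3, Hoxb7 and Hoxb5 were not in it. Frem3 was added after its values were seen, as the start covered by the CUT&RUN peak of highest fold enrichment on chromosome 8.
Hand2: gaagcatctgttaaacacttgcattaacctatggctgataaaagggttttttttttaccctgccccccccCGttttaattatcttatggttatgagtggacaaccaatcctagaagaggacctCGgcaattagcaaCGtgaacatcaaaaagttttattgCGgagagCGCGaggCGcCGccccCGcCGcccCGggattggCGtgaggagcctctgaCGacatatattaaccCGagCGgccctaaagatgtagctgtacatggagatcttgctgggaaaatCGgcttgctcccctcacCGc
Frem3: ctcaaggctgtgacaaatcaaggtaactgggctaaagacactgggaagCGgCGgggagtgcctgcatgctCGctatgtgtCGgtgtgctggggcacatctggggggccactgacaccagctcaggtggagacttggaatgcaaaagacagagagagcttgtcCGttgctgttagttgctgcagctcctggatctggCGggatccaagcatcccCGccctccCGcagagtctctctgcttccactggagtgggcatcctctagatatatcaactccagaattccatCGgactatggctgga
Neurod2: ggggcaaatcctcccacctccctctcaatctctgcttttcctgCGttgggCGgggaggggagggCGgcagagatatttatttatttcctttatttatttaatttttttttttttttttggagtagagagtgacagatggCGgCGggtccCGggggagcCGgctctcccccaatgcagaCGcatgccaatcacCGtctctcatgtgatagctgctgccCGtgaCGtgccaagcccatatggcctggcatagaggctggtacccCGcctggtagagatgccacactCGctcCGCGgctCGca
Hoxb4: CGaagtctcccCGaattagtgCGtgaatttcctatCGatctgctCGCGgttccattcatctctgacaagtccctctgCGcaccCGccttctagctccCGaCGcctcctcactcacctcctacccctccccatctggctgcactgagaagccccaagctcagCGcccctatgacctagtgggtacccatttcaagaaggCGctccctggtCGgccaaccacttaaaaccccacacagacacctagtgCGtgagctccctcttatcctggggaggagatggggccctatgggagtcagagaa
Tbx4: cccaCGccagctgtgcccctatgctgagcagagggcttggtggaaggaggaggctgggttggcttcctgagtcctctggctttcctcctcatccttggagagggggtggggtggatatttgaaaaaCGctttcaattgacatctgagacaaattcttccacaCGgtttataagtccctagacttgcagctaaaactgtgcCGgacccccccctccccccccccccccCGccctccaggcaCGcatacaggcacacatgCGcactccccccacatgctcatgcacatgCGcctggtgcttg

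The Hand2 window (chr8:57320733-57321032, plus strand) holds 17 CG and lies beside the peaks, 94 bp from a CUT&RUN peak of 1357 bp and 537 bp from a ChIP-seq peak of 1078 bp. The Frem3 window (chr8:80610789-80611088, plus strand) holds 9 CG, lies under a CUT&RUN peak of 2931 bp and 4.85-fold enrichment, and is 240 bp from a ChIP-seq peak. The Neurod2 window (chr11:98329596-98329895, minus strand) holds 16 CG and lies under a ChIP-seq peak of 2907 bp and 4.46-fold enrichment, 219 bp from a CUT&RUN peak of 5456 bp. The Hoxb4 window (chr11:96318017-96318316, plus strand) holds 14 CG and lies under a CUT&RUN peak of 5005 bp, 287 bp from a ChIP-seq peak of 4.22-fold enrichment. The Tbx4 window (chr11:85896515-85896814, plus strand) holds 8 CG and is under no peak, with a CUT&RUN peak at 910 bp and a ChIP-seq peak at 1102 bp. The 5′ ends used to call genes marked come from the count table and can differ from the RefSeq starts. Those of Tbx4 (85886422) and Hoxb4 (96316684) lie upstream of the printed windows. The peaks that marked Tbx4, of 866 bp by ChIP-seq and 1398 bp by CUT&RUN, are not those given here. None of these 5 windows was under peaks of both assays.

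At least 10 CG dinucleotides were found in 45.4% of 1442 promoter windows on chromosome 8, 50.8% of 2289 on chromosome 11 and 43.3% of 27665 on the other autosomes. At least 1 CG was found in 96.2%, 96.5% and 94.5% of them, in that order. Windows under peaks of both assays had a median of 6 CG on chromosome 8 (56 windows) and 6.5 on chromosome 11 (66 windows), and 8 on the other autosomes (520 windows). Windows under neither had medians of 9, 11 and 7 in the same order. At least 10 CG were found in 33.9%, 31.8% and 42.1% of the windows under both, and in 48.2%, 53.2% and 44.3% of those under neither. By this share the windows under both held fewer CG than those under neither on all 3, while by the median they held fewer on chromosomes 8 and 11 alone.

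Both lists also covered 2 microRNA hairpins, chosen after their values were seen because each is the one hairpin of its chromosome under peaks of both assays. Their mature RNAs, from RefSeq GRCm38.p6, are given 5′ to 3′ with the seed (bases 2 to 8) in capitals.
mmu-miR-6396: gGGGCCUUagcuccuaguccugga
mmu-miR-10a-5p: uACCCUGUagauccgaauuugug
mmu-miR-10a-3p: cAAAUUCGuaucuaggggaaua

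The 3 seeds differ. The Mir6396 hairpin (chr8:122622265-122622375, minus strand) lay under a ChIP-seq peak of 558 bp and 3.30-fold enrichment and a CUT&RUN peak of 5483 bp and 3.20-fold enrichment. The Mir10a hairpin (chr11:96317165-96317274, plus strand) lies in the Hoxb cluster, within the span counted for Hoxb4 but upstream of its RefSeq window above. It lay under a ChIP-seq peak of 1046 bp and 4.22-fold enrichment and a CUT&RUN peak of 5005 bp and 3.56-fold enrichment. In all, ChIP-seq peaks touched 2 of 40 hairpins on chromosome 8, 7 of 83 on chromosome 11 and 25 of 796 on the other autosomes. CUT&RUN peaks touched 3, 4 and 63 of them, and peaks of both assays touched 1, 1 and 16.

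By ChIP-seq, chromosomes 11 and 8 were the densest autosomes. Chromosome 8 had 32.5 peaks per Mb and chromosome 11 had 33.6, against 14.9 on the other 17 autosomes together, which is 2.19 and 2.26 times as many. The other autosomes ran between 6.32 per Mb on chromosome 3 and 24.5 on chromosome 4, with chromosome 7 next at 20.9. ChIP-seq peaks covered 2.01% of the length of both chromosomes 8 and 11, against 0.826% of the others.

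CUT&RUN set chromosome 11 apart more than chromosome 8. Chromosome 8 had 31.0 CUT&RUN peaks per Mb and rank 5 of 19 autosomes, and chromosome 11 had 39.4 and rank 1, against 25.9 on the others. The ratios to the other autosomes were 1.20 and 1.52. The others ran between 11.3 per Mb on chromosome 14 and 33.3 on chromosome 9, so chromosome 8 lay inside their range and chromosome 11 above it. CUT&RUN peaks covered 4.10% of chromosome 8 and 5.51% of chromosome 11, against 3.36% of the others.

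Genes were unevenly spread, so density was also counted per gene. Chromosome 8 carried 12.2 annotated genes per Mb, the same as the other autosomes together (12.2), and chromosome 11 carried 19.9, the most of any autosome. Per gene, chromosome 8 had 2.67 ChIP-seq peaks, the most of 19 autosomes, and chromosome 11 had 1.68, rank 4, against 1.22 on the others. Chromosome 15, with 1.89, was the highest of the others. Per gene, CUT&RUN gave 2.55 peaks on chromosome 8, rank 5 of 19, and 1.97 on chromosome 11, rank 16, against 2.13 on the others.

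A line of peaks per Mb on genes per Mb through the other 17 autosomes gave 14.8 ChIP-seq peaks per Mb at the gene density of chromosome 8 and 25.3 at that of chromosome 11. Chromosome 8 lay 17.7 peaks per Mb above this line and chromosome 11 lay 8.26 above it. The residual SD of the other 17 was 3.96, and the highest of them, chromosome 4, lay 7.86 above. By CUT&RUN the distances were 5.13 and 4.72 peaks per Mb, with a residual SD of 4.61, and chromosome 9 lay higher at 5.53. Across the 19 autosomes, genes per Mb and ChIP-seq peaks per Mb had a Pearson r of 0.69 and a Spearman rho of 0.75. For CUT&RUN they were 0.69 and 0.81. These are descriptions over 19 chromosomes of 1 sample each, which share library, depth and base composition.

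**Figure D1:**
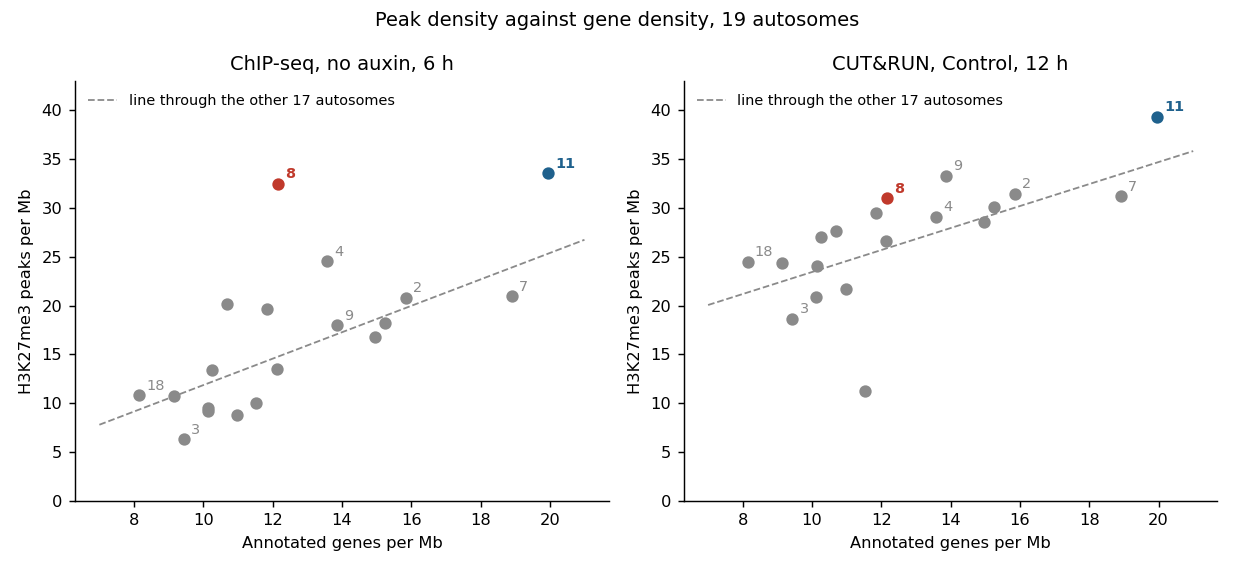
Each point is an autosome, with annotated genes per Mb on the x axis and H3K27me3 peaks per Mb on the y axis, ChIP-seq at left and CUT&RUN at right; the dashed line is fitted through the other 17 autosomes, of which some are labelled. In ChIP-seq, chromosome 8 (red) lies 17.7 and chromosome 11 (blue) 8.26 peaks per Mb above the line, and in CUT&RUN 5.13 and 4.72.

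Gene density was also held alike by sorting bins of 5 Mb by their number of genes. In bins with fewer than 30 genes, ChIP-seq gave 8.30 peaks per Mb on chromosome 8 (4 bins) and 13.4 on chromosome 11 (2 bins), against 2.29 on the others (121 bins). In bins with 30 to 59 genes the values were 22.9 and 16.7, against 9.20. With 60 to under 120 genes they were 42.8 and 28.6, against 25.6, and with 120 or more genes 78.3 and 55.0, against 37.1. ChIP-seq was thus denser on both chromosomes in each of the 4 classes, by least for chromosome 11 in bins of 60 to under 120 genes.

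CUT&RUN was not denser in each class. In bins with fewer than 30 genes it gave 13.4 peaks per Mb on chromosome 8 and 27.2 on chromosome 11, against 8.97 on the others. In bins with 30 to 59 genes the values were 24.9 and 26.9, against 25.3, and in bins with 60 to under 120 genes 44.6 and 37.7, against 38.4. In bins with 120 or more genes they were 46.9 and 52.1, against 37.6. The lowest class rests on 4 and 2 bins of these chromosomes.

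Along the chromosomes the peaks gathered in a few stretches. On chromosome 8 the bin from 120 to 125 Mb held 835 ChIP-seq peaks, 19.9% of the chromosome's peaks, with 437 CUT&RUN peaks and 186 genes. The bin from 10 to 15 Mb held 452 ChIP-seq and 458 CUT&RUN peaks with 77 genes, and that from 115 to 120 Mb held 414 and 381 with only 47 genes. These 3 bins were the leading ones in both assays and took 40.5% of the ChIP-seq and 31.9% of the CUT&RUN peaks of chromosome 8. The first holds Foxf1, Foxc2 and Foxl1, forkhead transcription factor genes of the mesoderm, and Cbfa2t3, a transcriptional corepressor gene.

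On chromosome 11 the leading bins took a smaller share, 30.4% of the ChIP-seq and 21.1% of the CUT&RUN peaks. The bin from 115 to 120 Mb, which holds the Polycomb genes Cbx2 and Cbx8, had 535 ChIP-seq and 333 CUT&RUN peaks. The bin from 80 to 85 Mb held 355 and 375. The bin from 95 to 100 Mb, which holds the Hoxb cluster and 237 genes, had 352 ChIP-seq and 272 CUT&RUN peaks, and the bin from 30 to 35 Mb had 263 and 304. When each chromosome was cut into 3 parts of equal length, the last part held 61.4% of the ChIP-seq peaks of chromosome 8 and 54.6% of those of chromosome 11, against 52.1% on the other autosomes. For CUT&RUN the shares were 55.7% and 44.1%, against 46.7%, and for genes 41.1% and 45.0%, against 37.5%.

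Both assays followed each other along the chromosomes. Across 5 Mb bins, ChIP-seq and CUT&RUN peaks per Mb had a Spearman rho of 0.89 on chromosome 8 (26 bins), 0.90 on chromosome 11 (25 bins) and 0.89 on the others (451 bins). ChIP-seq peaks per Mb followed genes per Mb less closely, with rho of 0.64 and 0.69, against 0.74. ChIP-seq peaks outnumbered CUT&RUN peaks in 11 of 26 bins of chromosome 8 and 6 of 25 of chromosome 11, against 56 of 451 elsewhere. Bins of 1 chromosome share both samples, and the values are given as a description.

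**Figure D2:**
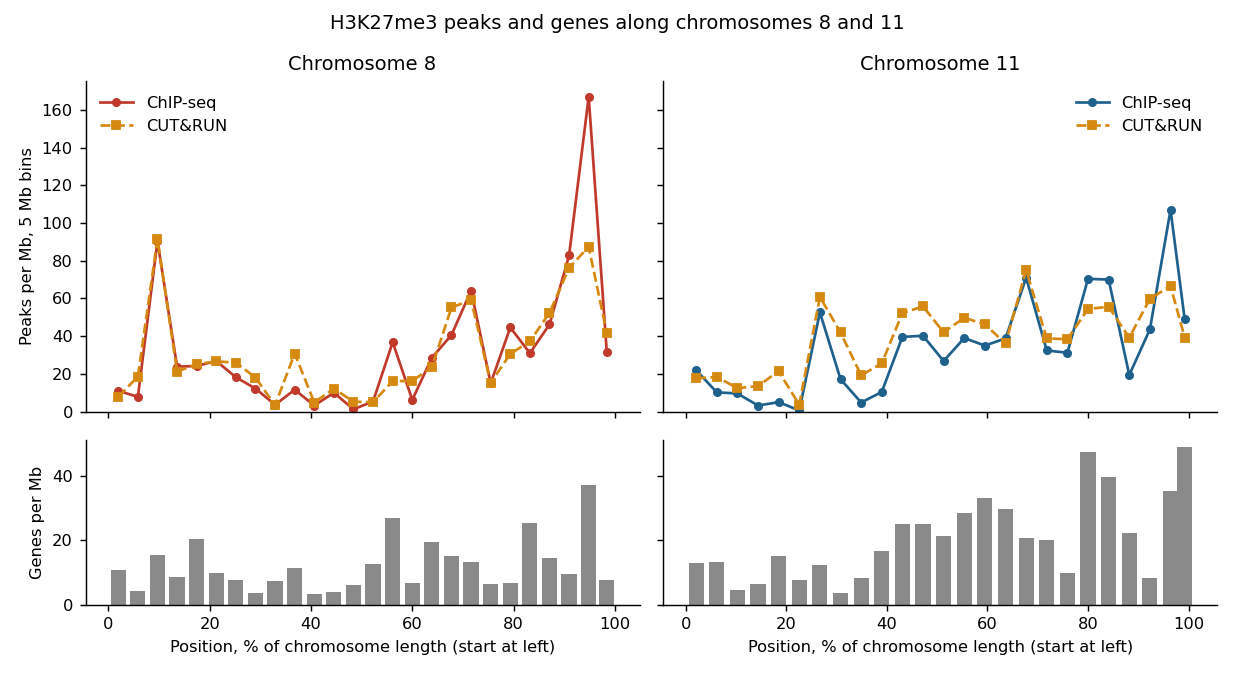
Peaks per Mb in bins of 5 Mb (upper row; solid line, ChIP-seq; dashed line, CUT&RUN) and annotated genes per Mb (lower row) along chromosome 8 (left) and chromosome 11 (right), with position as percent of the chromosome's length. On chromosome 8 the highest ChIP-seq bin, near the end, holds 835 peaks against 437 in CUT&RUN, and both assays rise together near the start.

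Peaks on the 2 chromosomes were slightly wider than on the other autosomes pooled, and their enrichment was much the same. The median ChIP-seq width was 470 bp on chromosome 8 and 465 bp on chromosome 11, the widest of 19 autosomes, against 439 bp on the others. Across the 19 autosomes, median ChIP-seq width and ChIP-seq peaks per Mb had a Pearson r of 0.93, and also 0.93 without chromosomes 8 and 11. The width is therefore not read as a trait apart from the number of peaks. The median CUT&RUN width was 896 and 917 bp, against 858 bp, with chromosome 8 at rank 4, below chromosome 2 (904 bp) and chromosome 4 (900 bp). Among ChIP-seq peaks, 2.14% on chromosome 8 and 1.66% on chromosome 11 were wider than 2 kb, against 1.1% of the others pooled, and chromosome 19 had more (2.33%). Of the 100 widest ChIP-seq peaks of the whole list, 21 lay on chromosome 8 and 14 on chromosome 11, which hold 10.2% and 9.94% of the list. Of the 100 widest CUT&RUN peaks, 5 and 10 lay there, where the chromosomes hold 6.05% and 7.24% of the list.

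The fold enrichment and q-values are the peak caller's own, as the authors deposited them. The median ChIP-seq fold enrichment was 3.26 on chromosome 8, rank 17 of 19 autosomes, and 3.31 on chromosome 11, rank 6, against 3.30 on the others. The lower quartile on chromosome 8, 3.03, was the lowest of all autosomes, while its highest peak, at 7.25, was the highest of the list. The median CUT&RUN fold enrichment was 3.05 on each, against 3.04. A −log10 q of at least 2 was reached by 38.5% of ChIP-seq peaks on chromosome 8 and 38.0% on chromosome 11, the highest shares of any autosome, against 34.6%. For a −log10 q of at least 3 the shares were 8.06% and 6.82%, against 5.74%. A −log10 q of at least 5 was reached by 11 and 7 ChIP-seq peaks, against 41 on the other 17 autosomes together, and by 1 and 5 CUT&RUN peaks, against 16.

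ChIP-seq peaks of chromosome 8 lay less often at gene starts than those of any other autosome. Within 1 kb of a 5′ end were 6.63% of them and 9.85% of those of chromosome 11, against 8.79% on the others, where the lowest, chromosome 4, had 6.80%. Introns held 39.2% and 35.9%, against 31.5%, exons 10.8% and 16.5%, against 14.4%, and stretches between genes 43.3% and 37.7%, against 45.3%. CUT&RUN peaks were within 1 kb of a 5′ end in 4.82% on chromosome 8 and 8.34% on chromosome 11, the highest of any autosome, against 6.42%. Gene starts thus held 278 of the 4196 ChIP-seq peaks of chromosome 8.

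The assays agreed differently in the 2 directions. Of the ChIP-seq peaks of chromosome 8, 47.1% (exact Clopper-Pearson 95% interval 45.6 to 48.6%) overlapped a CUT&RUN peak by at least 1 bp, and 51.5% (49.9 to 53.0%) of those of chromosome 11, against 52.8% on the others. Only chromosome 14, at 28.4%, was below chromosome 8. Of the CUT&RUN peaks, 33.1% (31.6 to 34.6%) on chromosome 8 and 28.9% (27.6 to 30.2%) on chromosome 11 overlapped a ChIP-seq peak, against 20.9% on the others, which gave them ranks 1 and 3 of 19. More ChIP-seq peaks per Mb leave more CUT&RUN peaks to be touched, and these chromosomes were chosen by their number of peaks. Chromosome 3, with 6.32 ChIP-seq peaks per Mb, had 12.7%, and chromosome 4, with 24.5, had 30.5%. The 2 ranks are therefore not read as better agreement. The intervals cover counting error only, and neighbouring peaks are not independent.

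**Figure D3:**
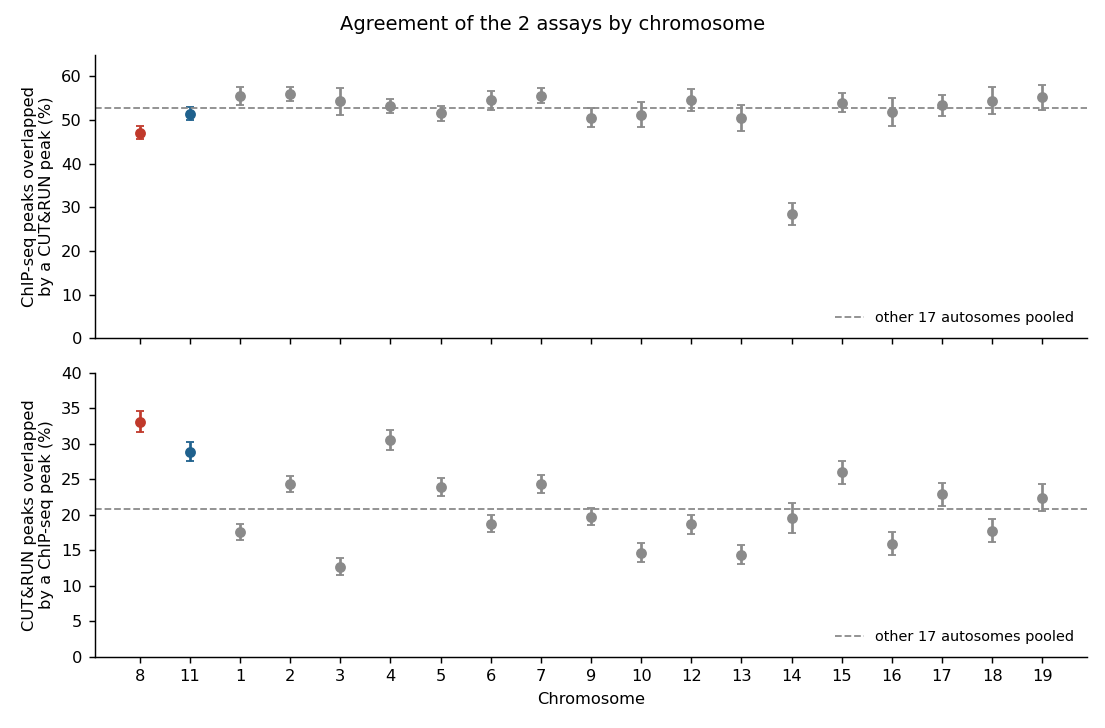
Share of ChIP-seq peaks overlapped by a CUT&RUN peak (upper panel, %) and of CUT&RUN peaks overlapped by a ChIP-seq peak (lower panel, %) per chromosome, with exact 95% intervals; chromosomes 8 and 11 stand at left and the dashed line is the pooled share of the other 17. Chromosome 8 is low in the upper panel (47.1% against 52.8%) and highest in the lower (33.1% against 20.9%).

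ChIP-seq peaks with no CUT&RUN partner, called lone here, accounted for more of the excess on chromosome 8 than shared ones, with 2.45 times the density of the other autosomes against 1.95 times. On chromosome 11 the ratios were 2.32 and 2.21. Chromosome 8 had 17.2 lone ChIP-seq peaks per Mb and chromosome 11 had 16.3, against 7.02, and 15.3 and 17.3 shared ones per Mb, against 7.84. Lone CUT&RUN peaks were at 20.7 per Mb on chromosome 8, rank 10 of 19, and 28.0 on chromosome 11, rank 1, against 20.5. The number of ChIP-seq peaks per CUT&RUN peak was 1.05 on chromosome 8, the highest of 19, and 0.853 on chromosome 11, rank 3, against 0.574, with chromosome 14 at 0.884. Chromosome 8 thus differed from the other autosomes more by ChIP-seq than by CUT&RUN.

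Lone ChIP-seq peaks were shorter and weaker than shared ones on chromosomes 8 and 11 and on the other autosomes. Their median width was 417 bp on chromosome 8 and 411 bp on chromosome 11, against 391 bp on the others, while shared peaks had medians of 566 and 532 bp, against 499 bp. The median fold enrichment of lone peaks was 3.21 and 3.26, against 3.25, and of shared peaks 3.31 and 3.37, against 3.34. Between genes lay 49.8% and 42.8% of the lone peaks, against 50.1%.

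The named peaks include shared and lone ones, and the widest are given first. The widest ChIP-seq peak of all lay on chromosome 8 at the 5′ end of Ncan (70114011 to 70120846, 6836 bp, 3.85-fold), the gene of the brain proteoglycan neurocan. The next widest on chromosome 8 lay at Cilp2 (6342 bp, 4.43-fold), a gene of a cartilage matrix protein, and in an intron of Cbfa2t3 (4935 bp, 4.05-fold). The widest on chromosome 11 lay 7018 bp from the 5′ end of Neurod2, a neuronal differentiation factor gene (98316002 to 98322630, 6629 bp, 4.5-fold, rank 2 of the list by width). Next came Grin2c, a glutamate receptor subunit gene (4675 bp, 3.97-fold), and a stretch 33944 bp from Fgf18, a growth factor gene (3948 bp, 3.82-fold). All 6 overlapped a CUT&RUN peak.

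The ChIP-seq peaks of highest fold enrichment were of another kind on chromosome 8. The highest, at 7.25-fold with a −log10 q of 13.6, was a peak of only 434 bp in an exon of Ctcf (105664667 to 105665100), the gene of the insulator protein CTCF. The next lay between genes at 19935806 to 19936119 (314 bp, 6.21-fold) and at 34731873 to 34732256 (384 bp, 5.44-fold). None of these 3 overlapped a CUT&RUN peak, so the strongest ChIP-seq peaks of chromosome 8 were lone, though lone peaks were weaker by the median. On chromosome 11 the highest lay at the 5′ end of Emid1 (5.66-fold, 810 bp), in an exon of Stac2 (5.54-fold, 723 bp) and 1903 bp from Hoxb8 (5.46-fold, 642 bp), and all 3 overlapped a CUT&RUN peak.

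CUT&RUN gave wider stretches. On chromosome 8 the widest lay over Cdh5, the gene of the endothelial cadherin (104094720 to 104112811, 18092 bp), in Ndrg4 (15549 bp) and over 5033428I22Rik (13850 bp). The widest on chromosome 11 lay within Wnt9b, a Wnt ligand gene (103727890 to 103747417, 19528 bp), over Hoxb3 and Hoxb4 (96320654 to 96339709, 19056 bp) and over Epn3 and Mycbpap (16079 bp). These 6 all overlapped ChIP-seq peaks. The highest CUT&RUN enrichments on chromosome 8 were at the 5′ end of Frem3 (4.85-fold), whose promoter is printed above, and at 2 stretches between genes (4.55-fold and 4.51-fold), all 3 with a ChIP-seq peak. On chromosome 11 they were 1798 bp from Camk2b (5.22-fold) and in exons of St6galnac1 (4.99-fold) and Ccdc40 (4.62-fold), none of which had one.

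At gene starts, both chromosomes held more genes marked by both assays than the pooled others, but not the most. On chromosome 8, 125 of 1571 genes (7.96%) had peaks of both assays within 1 kb of the 5′ end, and on chromosome 11 203 of 2431 (8.35%), against 1634 of 26899 (6.07%) on the others. Over all autosomes the share was 6.35%, and chromosome 15 had 9.64%, above both. By ChIP-seq alone or with CUT&RUN, 14.6% and 13.6% of genes were marked, against 9.06% on the others and 9.70% over all autosomes. By CUT&RUN, with or without ChIP-seq, 12.5% and 16.5% were marked, against 13.9% on the others and 14.0% over all autosomes. Since the peaks chose the chromosomes, nothing is read from these shares.

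Of 15 listed developmental regulators on chromosome 8, 10 were marked by ChIP-seq, 4 by CUT&RUN and 4 by both, beside 9.70%, 14.0% and 6.35% of all autosomal genes. The list was made by hand with earlier results known, and no test was run on it. Those 4 were Irx6 and Nkx6-3, homeobox genes, Hand2, a heart and limb factor, and Foxl1, a forkhead gene. Foxf1, Foxc2, Irx5, Nr2f6, Nfix and Lyl1 had a ChIP-seq peak only, and Irx3, Sall1, Sox1, Klf2 and Tox3 had neither. The ChIP-seq peak at Foxl1 had the highest enrichment of the 4 (4.83-fold, 4037 bp), that at Irx6 was 4.15-fold, that at Hand2 3.43-fold and that at Nkx6-3 3.11-fold.

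Of 32 listed genes on chromosome 11, 20 were marked by ChIP-seq, 19 by CUT&RUN and 16 by both, beside the same shares of all autosomal genes. The 8 genes Hoxb1 to Hoxb8, which pattern the body axis, were all among the 16, with ChIP-seq enrichments between 3.25-fold (Hoxb2) and 4.47-fold (Hoxb7). Hoxb13 had a ChIP-seq peak only, and Hoxb9 had neither. Among the others were the homeobox genes Tlx3, Dlx3 and Dlx4, the T-box gene Tbx4, the forkhead gene Foxi1, Neurod2 and the zinc finger gene Sp6. Hand1, Otx1 and Lhx1 had a CUT&RUN peak only. Of secreted signals and receptors, none of 8 on chromosome 8 and 2 of 11 on chromosome 11, the Wnt ligands Wnt3 and Wnt3a, had both, beside 6.35% of all autosomal genes. Of 11 genes of the Polycomb, chaperone and H3K27 list, Cbx8 was among those marked by ChIP-seq, and none was marked by CUT&RUN.

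Genes marked by both assays had little RNA. Of the 125 on chromosome 8, 28 (22.4%) averaged at least 1 CPM without auxin, and of the 203 on chromosome 11, 28 (13.8%), against 295 of 1634 (18.1%) on the others. Their median level on chromosome 8 was 0.0737 and 0.119 CPM with auxin, against 0.0702 and 0.0678 CPM without it. Genes with neither mark reached 1 CPM in 47.7% on chromosome 8 and 49.8% on chromosome 11, against 42.2% on the others. Foxl1, Neurod2, Foxi1, Hoxb5 and Hoxb6 had no fragment in any library, which allows up to 3 fragments of 13353446 to 16046290.

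RNA levels were then compared by chromosome over the 13038 autosomal genes that passed the expression filter, as log2 of CPM plus 0.1 per kb of exon. The median level on chromosome 8 exceeded that of the other 17 autosomes by 0.36 and 0.40 in the auxin libraries and by 0.37 and 0.42 in those without auxin, 0.39 ± 0.03 on average (SD, n = 4 libraries). On chromosome 11 it exceeded theirs by 0.23 and 0.26 with auxin, and by 0.20 and 0.14 without it, 0.21 ± 0.05 on average. Chromosome 8 had rank 1 of 19 autosomes and chromosome 11 rank 8. The other 17 ran between −0.31 (chromosome 13) and 0.32 (chromosome 18), with an SD of 0.21. The libraries differed little, so the spread that matters is that between chromosomes, which carry different genes, and chromosome 8 lay just above its upper end. It had rank 2, inside the range of the others, when genes were held to 1 CPM in every library, to 10 CPM on average, or were not divided by length. With 1 line there is no sample of another copy number to compare it with.

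**Figure D4:**
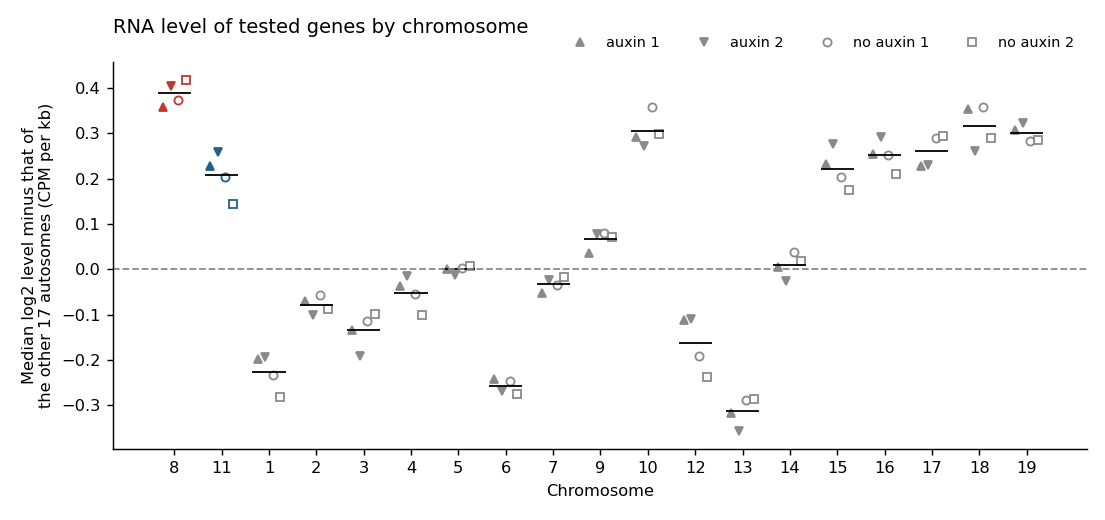
Median log2 RNA level of the tested genes of each chromosome minus that of the other 17 autosomes (CPM plus 0.1, per kb), with 1 point per library (filled, auxin; open, no auxin) and a line at their mean; chromosomes 8 and 11 stand at left. Chromosome 8 averages 0.39 and chromosome 11 averages 0.21, while the others lie between −0.31 and 0.32.

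Of the genes of chromosome 8, 46.5% passed the filter, as did 46.5% on chromosome 11, against 41.6% on the others. In windows of 20 Mb, the median level of chromosome 8 was above that of the other autosomes in all 7, by 0.05 (20 to 40 Mb) to 0.61 (100 to 120 Mb). On chromosome 11 the 7 windows ran between −0.42 (20 to 40 Mb) and 0.79 (0 to 20 Mb). On chromosome 8 the greatest excesses lay from 80 Mb on, and the window from 120 Mb, with the leading bin of ChIP-seq peaks, stood at 0.48. On chromosome 11 the window from 100 to 120 Mb, with the leading bin, stood at 0.15. A relation between RNA level and peaks was not tested.

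Auxin changed genes of chromosomes 8 and 11 about as often as other genes. The degron acts on the NPM1 protein, so the Npm1 transcript does not check the labels. Of 730 tested genes on chromosome 8, 88 rose and 104 fell (edgeR quasi-likelihood test, Benjamini-Hochberg adjusted p under 0.05), and of 1131 on chromosome 11, 155 rose and 159 fell. These are 12.1% and 13.7% higher, against 13.0% of the 13522 genes tested, and 14.2% and 14.1% lower, against 14.5%. The median log2 fold change was −0.004 on chromosome 8 and 0.01 on chromosome 11, and 0.01 on the others.

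Among tested genes with both marks, the share that rose was above that of all tested genes on chromosome 11 and not on chromosome 8. Only 35 of the 125 genes on chromosome 8 and 48 of the 203 on chromosome 11 passed the expression filter, so the rest could not be called. A near-silent gene could pass through 1 group alone, as Pdlim4 did with 15 and 21 fragments with auxin, against 2 and 3 without it. That can raise the share called in the direction of that group, so these shares and medians are not read as an effect of the marks. On chromosome 8, 3 rose (8.57%, exact 95% interval 1.80 to 23.1%) and 1 fell, with a median log2 fold change of 0.07. That interval includes the 13.0% of all genes tested. On chromosome 11, 13 rose (27.1%, exact 95% interval 15.3 to 41.8%) and 2 fell, with a median of 0.45, beside 13.0% and 14.5% of all genes tested. On the other autosomes, 77 of 429 rose (17.9%) and 15 fell, with a median of 0.29. The difference between these chromosomes was not tested. The count on chromosome 11 rests on single libraries, with 6 rising without auxin replicate 2 and 8 without no-auxin replicate 1. By DESeq2 it was 3, of 33 genes with both marks that had an adjusted p. The count on chromosome 8 was 7 without auxin replicate 1, 5 without no-auxin replicate 2 and 1 by DESeq2, of 29 such genes.

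On chromosome 8, Crispld2, a secreted protein gene, stood at 8.48 and 7.19 CPM with auxin, against 4.00 and 3.12 CPM without it (2.19-fold, log2 fold change 1.13, SE 0.20, edgeR adjusted p = 0.00181). Kcnn1, a calcium-activated potassium channel gene, stood at 3.17 and 4.28 CPM, against 1.9 and 1.70 CPM (2.09-fold, edgeR adjusted p = 0.0117). Clgn, a chaperone gene of the testis, stood at 9.0 and 10.6 CPM, against 6.81 and 5.09 CPM (1.65-fold, edgeR adjusted p = 0.0116). Zmat4, a zinc finger gene, fell to 5.46 and 4.57 CPM with auxin, against 11.2 and 10.3 CPM without it (2.16-fold lower, edgeR adjusted p = 0.000666). In all 4 genes the auxin and no-auxin libraries did not overlap, which the choice of called genes makes likely. The share of all tested genes without overlap was not counted, so nothing is read from this. Kcnn1 lost its call without auxin replicate 2 (adjusted p = 0.117) and by DESeq2 (0.0994), and Clgn without no-auxin replicate 2 (0.0559) and by DESeq2 (0.0576).

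Among genes with both marks, the largest rises on chromosome 11 included those of Pdlim4, Cntnap1, Fat2, Nags, Hoxb4, Tbx4 and Wnt3. Pdlim4, a gene of a cytoskeletal adaptor, had 15 and 21 fragments with auxin, against 2 and 3 without it (log2 fold change 2.72, SE 0.52, edgeR adjusted p = 0.00285). Cntnap1, a gene of axon junctions, had 16 and 21 fragments, against 1 and 8. These changes rest on few fragments without auxin. In each of the 7 genes the lower auxin library lay above the higher library without auxin, which the choice of called genes again makes likely. As on chromosome 8, nothing is read from this. Fat2, a cadherin gene, stood at 1.84 and 1.9 CPM with auxin, against 0.492 and 0.678 CPM without it (3.17-fold, edgeR adjusted p = 0.00604). Tbx4, a gene of hindlimb and lung development, stood at 4.28 and 7.90 CPM, against 2.2 and 3.32 CPM (2.24-fold, edgeR adjusted p = 0.0154). Wnt3, needed for the primitive streak, stood at 3.39 and 4.4 CPM, against 1.05 and 2.58 CPM (2.15-fold, edgeR adjusted p = 0.0319). Hoxb4 stood at 1.18 and 2.32 CPM, against 0.773 and 0.746 CPM (2.35-fold, edgeR adjusted p = 0.0444), and Nags, a urea cycle enzyme gene, at 1.99 and 2.49 CPM, against 0.421 and 1.29 CPM (2.61-fold, edgeR adjusted p = 0.0284). Without auxin, Fat2 had 7 and 10 fragments, Nags 6 and 19 and Hoxb4 11 and 11, so these calls too rest on few fragments. Cntnap1, Fat2 and Nags may have passed the expression filter through the auxin libraries.

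Most of these 7 lost their call under some alternative. Without auxin replicate 2, edgeR gave adjusted p values of 0.0546 for Cntnap1, 0.0827 for Nags, 0.517 for Hoxb4, 0.157 for Tbx4 and 0.0742 for Wnt3. Without no-auxin replicate 1 the calls of Cntnap1 (0.207), Nags (0.190), Hoxb4 (0.110) and Wnt3 (0.186) were lost, and without no-auxin replicate 2 that of Hoxb4 (0.113). DESeq2 did not call Fat2 (adjusted p = 0.0782), Nags (0.137), Hoxb4 (0.252) or Wnt3 (0.112). It gave Pdlim4 and Cntnap1 no adjusted p, so these were not called by it either. Both fallers held under every alternative. Slc16a3, a lactate transporter gene, fell to 10.4 and 16.3 CPM with auxin, against 24.8 and 25.4 CPM (1.85-fold lower, edgeR adjusted p = 0.00226). Ptrf, a caveola protein gene, fell to 30.1 and 34.1 CPM, against 44.9 and 47.4 CPM (1.43-fold lower, edgeR adjusted p = 0.00147).

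**Figure D5:**
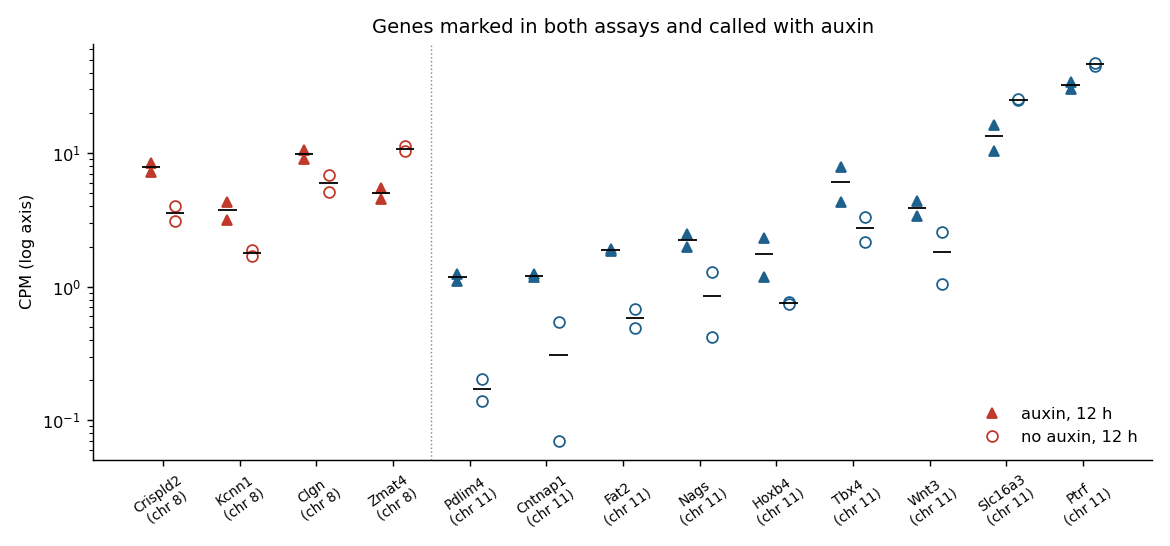
CPM (log axis) of genes marked by both assays and called with auxin, all 4 on chromosome 8 and, on chromosome 11, 7 of the largest rises and both falls, with 1 point per library (filled triangles, auxin; open circles, no auxin) and a line at the mean of each pair; chromosome 8 in red at left, chromosome 11 in blue. Crispld2, Kcnn1, Clgn and the 7 genes from Pdlim4 to Wnt3 are higher with auxin, and Zmat4, Slc16a3 and Ptrf are lower.

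Among all called genes averaging at least 1 CPM, the largest rises on chromosome 8 were those of Ppp1r3b, a glycogen regulator gene (4.11-fold, edgeR adjusted p = 7.65e-05), Comp (3.45-fold), Gpr124 (2.88-fold) and D8Ertd82e (2.61-fold). Of these, Comp, a cartilage matrix gene, was marked by ChIP-seq and D8Ertd82e by CUT&RUN. The largest falls were those of Dusp4, a MAP kinase phosphatase gene (4.73-fold lower, edgeR adjusted p = 0.000100), Zfp423 (3.27-fold lower), Kifc3 (2.79-fold lower) and Pou4f2 (2.33-fold lower), none with a peak at the 5′ end. On chromosome 11, Rnf213, a ubiquitin ligase gene, stood at 118 and 122 CPM with auxin, against 24.9 and 31.9 CPM without it (4.22-fold, edgeR adjusted p = 2.58e-07). Hand1 (3.39-fold), Aspa (3.36-fold) and Tbx2 (3.28-fold) followed. Without auxin, Hand1 had 4 and 12 fragments and Tbx2 had 8 and 6. The rises of Hand1 and Tbx2 thus rest on few fragments, and both may have passed the filter through the auxin libraries. Etv4, an ETS factor gene downstream of ERK, fell to 4.57 and 5.94 CPM, against 67.9 and 73.1 CPM (13.2-fold lower, edgeR adjusted p = 4.68e-09), before Ramp3 (2.67-fold lower), Nsg2 (2.42-fold lower) and Bcl11a (2.35-fold lower). Of these 16, Hand1, Tbx2 and Nsg2 lost their call without single libraries, with adjusted p values up to 0.254, 0.141 and 0.0951, and by DESeq2.

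Within the lists, 10 developmental regulators of chromosome 8 were tested, of which Klf2 rose and Sall1 and Sox1 fell, beside 13.0% higher and 14.5% lower among all genes tested. Sox1, a neural factor gene without a peak at its 5′ end, stood at 7.52 and 9.68 CPM with auxin, against 13 and 16.4 CPM without it (log2 fold change −0.76, edgeR adjusted p = 0.00558). Sall1 lost its call without auxin replicate 2 (adjusted p = 0.297) and without no-auxin replicate 1 (0.110). Of 19 tested on chromosome 11, 13 were not called, and Hoxb4, Hoxb13, Hand1, Tbx2 and Tbx4 were among those that rose, of which only Hoxb13 kept its call under every alternative. Of the secreted signals and receptors, Sfrp1 and Fgfr1 rose and Nrg1 fell among 5 tested on chromosome 8, and Wnt3, Ngfr and Erbb2 rose among 8 tested on chromosome 11, beside the same shares of all genes. Ngfr, the p75 neurotrophin receptor gene, stood at 127 and 131 CPM with auxin, against 90.7 and 82.3 CPM without it (log2 fold change 0.58, edgeR adjusted p = 0.000122). Fgfr1, Erbb2 and Nrg1 lost their calls without auxin replicate 2 (adjusted p = 0.225, 0.0848 and 0.169) and without no-auxin replicate 1 (0.193, 0.0917 and 0.122), and by DESeq2 (0.0671, 0.0978 and 0.183).

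Of the Polycomb, chaperone and H3K27 genes, 10 lay on chromosome 11. The Polycomb chromobox gene Cbx8, with a ChIP-seq peak at its 5′ end, stood at 6.41 and 5.46 CPM with auxin, against 2.88 and 2.85 CPM without it (log2 fold change 1.04, edgeR adjusted p = 0.00360). Ezh1, a methyltransferase subunit gene, and Kdm6b, an H3K27 demethylase gene, rose by less, with log2 fold changes of 0.29 and 0.22 (edgeR adjusted p = 0.0258 and 0.00927). Ezh1 lost its call without auxin replicate 2 (adjusted p = 0.0979) and without no-auxin replicate 2 (0.168) and by DESeq2 (0.152), and Kdm6b without no-auxin replicate 1 (0.0832). Npm1 stood at 843 and 767 CPM with auxin, against 1058 and 951 CPM without it, and fell by 0.32 on the log2 scale, as did Supt6 by 0.32 and the histone gene H3f3b by 0.25. The PRC2 subunit gene Suz12 (log2 fold change −0.01), Cbx2 (0.06) and Pcgf2 (−0.13) were not called. On chromosome 8 the one listed gene, Asf1b, a histone chaperone gene, was not called (log2 fold change −0.27, edgeR adjusted p = 0.0817).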

How the data were processed

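Polyadenylated RNA of 4 libraries and H3K27me3 of 2 samples were used. The deposited counts are raw fragments per gene name, which the authors made with featureCounts 1.6.3 using an mm10 annotation and the reverse-strand setting, per the file headers. Library totals were 13353446 and 16046290 with auxin and 14789851 and 15183126 without it. The submitters' processing notes also name STAR 2.6.1d, Bowtie2 2.4.1 and MACS2 2.1.1. Each deposited broad peak carries a fold (a ratio), a −log10 p, a −log10 q and a score, which was not used. Neither the control library nor the cutoff of the peak caller was found in the labels, and the depth of the ChIP-seq and CUT&RUN libraries is not known.

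A gene was marked when a peak touched the window reaching 1 kb up and down from its 5′ end. Chromosome length was the end of the last gene or peak. Gene positions came from the count table (30901 genes on autosomes, with 38 of 33006 genes left out for mixed chromosomes or strands). Of 24367 symbols, 99.9% overlapped their RefSeq GRCm38.p6 gene. Counts of 13522 genes were tested with edgeR 4.0.16 (TMM, default filter, quasi-likelihood F test, Benjamini-Hochberg, two-sided, threshold 0.05), and with DESeq2 1.42.0 as an alternative, after tests on simulated data. CPM used TMM-scaled library sizes. Replicates differed beyond counting error, with a chi-square of 11.95 per degree with auxin and 4.08 without.

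The peaks named were the 3 widest and the 3 of highest fold per chromosome and assay. The genes named were the largest called changes, up to 8 each way among genes with both marks and 4 each way among all called genes of at least 1 CPM, and list members. Members, lists and tests were chosen with earlier results of these data known. Results for some genes that this rule selects are not reported here.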

Additional observations from a re-analysis of the deposited data

How the results depend on the processing

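With 1 sample per chromatin assay and unknown read depth, the peak ratios have no replicate error. The ratio of ChIP-seq peaks per Mb to the other autosomes was 2.43 on chromosome 8 and 2.48 on chromosome 11 at a −log10 q of at least 2, 4.59 and 3.09 at 5, and 1.96 and 2.02 with peaks closer than 3 kb joined. In bins of under 30, 30 to 59, 60 to under 120 and 120 or more genes, a split chosen after seeing the data, it was 3.63, 2.49, 1.67 and 2.11 on chromosome 8, and 5.86, 1.81, 1.12 and 1.48 on chromosome 11. Per gene it was 1.94 and 1.22 over genes with at least 10 fragments, and 1.65 and 1.55 with peaks at 5′ ends alone. The CUT&RUN ratio per Mb was 1.07 on chromosome 8 and 5.66 on chromosome 11 at a −log10 q of at least 5, and on chromosome 11 also 1.68 at 2 and 1.43 with peaks joined. By bins it was 1.49, 0.982 and 1.25 on chromosome 8 (lowest, next and highest class), and 3.03, 1.06, 0.983 and 1.39 on chromosome 11. Per gene the CUT&RUN ratio was 1.06 and 0.823 over genes with at least 10 fragments, and 0.900 and 1.21 at 5′ ends alone.

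Of ChIP-seq peaks, 36.6% on chromosome 8 and 41.3% on chromosome 11 had at least 0.5 of their length under CUT&RUN peaks. The other autosomes had 42.7%. With that share in both directions the values were 6.20% and 5.38%, against 5.16%, so both chromosomes lay above the others. When both lists were held to a −log10 q of at least 2, 22.9% and 26.3% overlapped, against 25.4%. Of CUT&RUN peaks the shares were 11.7% and 8.40%, against 4.98%, then 6.49% and 4.59%, against 2.96%, and, on chromosome 8, 36.0%, against 21.2%. The RNA excess of chromosome 8 was 0.32 over genes at 1 CPM in every library, 0.30 at 10 CPM on average, 0.35 not divided by length (rank 2 of 19 in these 3) and 0.34 by means (rank 1), and that of chromosome 11 was 0.13 by means. The cause of these moves was not tested.

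Counts of called genes on chromosomes 8 and 11 were 330 and 539 with a replicate block and 111 and 205 by DESeq2, beside 192 and 314, and ranged between 129 and 188, and between 220 and 322, when 1 library was left out. The numbers do not pair the samples, whose same-numbered deviations had a correlation of 0.23 over 2 pairs. Risers among genes with both marks were 9 on chromosome 8 with the replicate block, 7 with genes of at least 1 fragment in any library, 1 by DESeq2 and 2 to 7 without 1 library. On chromosome 11 they were 3 by DESeq2, 18 with the block and 6 to 17 without 1 library. No named gene reversed its direction under these settings.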

Other observations

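The X chromosome, which was left out of the comparison, held 49 ChIP-seq and 236 CUT&RUN peaks. Chromosome 14 stood apart from the autosomes in the other direction by CUT&RUN, with 11.3 peaks per Mb and 0.978 peaks per gene, both the lowest of 19, while ChIP-seq peaks overlapped by CUT&RUN were 28.4% there. This was uneven along the chromosome. Its bin from 30 to 35 Mb held 410 CUT&RUN and 282 ChIP-seq peaks, and that from 60 to 65 Mb held 28 and 176. The median gap between neighbouring ChIP-seq peaks was 2.87 kb on chromosome 8 and 2.83 kb on chromosome 11, against 3.87 kb on the other autosomes, and chromosome 4 had a shorter one (2.61 kb). Between neighbouring CUT&RUN peaks it was 4.91 and 4.25 kb, against 4.96 kb.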
